A study of Rattus norvegicus with 16 samples.

Results

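The change in RNA between 12 h and 48 h was examined in neural stem cells kept in stiff hydrogels, in 8 of the 16 libraries of the series. The 8 were taken by their labels: all libraries from gels of 1.2 kPa, 4 at 48 h and 4 at 12 h. The cells were adult rat hippocampal neural stem cells, cultured progenitors from which neurons and glia of the hippocampus can arise. They were held inside a gel of hyaluronic acid, a sugar polymer of brain matrix. The medium, a DMEM-F12 base with N2, carried 1 μM retinoic acid and 1% FBS in every group, so that both times come from cells set to differentiate into mixed fates. At each time 2 libraries came from gels without RGD and 2 from gels with RGD, a short adhesion peptide that integrin receptors bind. The other 8 libraries, from soft gels of 100 Pa with the same combinations of RGD and time, serve here only for comparison. Each library counted tags from the 3′ ends of transcripts, so that a count does not grow with transcript length. No undifferentiated culture and no time before 12 h is among the samples, so that a change from 12 h to 48 h cannot be set against the cells' state on entering the gel.

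Neural stem cells that leave self-renewal lose the transcripts of the dividing progenitor and gain those of neurons, astrocytes or oligodendrocytes, over a period of days. Retinoic acid acts through nuclear receptors that bind DNA, and serum supplies growth and differentiation factors. Stiffness reaches the nucleus through adhesions, the actin skeleton and regulators that move between cytoplasm and nucleus. Rows of the deposited table are Ensembl transcripts. The reference used here, 47357 rat genes of which 0 carry an Ensembl identifier, gave a symbol to 0 of them. Lineage markers, pathways and the labelled cell type could therefore not be looked up, and no sequence is printed. Transcripts are described as groups, and 2 identifiers are given in each direction.

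The 8 stiff libraries held 2035890 to 3420786 counts. Totals did not separate the times, with a mean of 2697700 ± 495498 at 12 h against 2545760 ± 385605 at 48 h (SD, n = 4 each; exact two-sided permutation test over 70 assignments, p = 0.629). The pair of transcripts with the most counts took about as many as all others together. The share of ENSRNOT00000069133.1 was 38.1% ± 2.07 at 12 h against 38.8% ± 1.64 at 48 h (SD, n = 4 each). That of ENSRNOT00000040038.3 was 11.5% ± 0.997 against 10.7% ± 0.454 (SD, n = 4 each). Neither passed the test for time (edgeR adjusted p = 0.76 and 0.972). The depth behind all other transcripts was 990697 to 1645978 counts per library.

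Fewer transcripts were detected at 48 h once depth was matched. A library held 10857 to 11385 transcripts with at least 1 count at 12 h and 10363 to 10905 at 48 h (exact two-sided permutation p = 0.0571). At the lowest total, to which each library was brought by the expected number of transcripts in a random draw, the 12 h libraries held 10708.6 to 10995.3 and the 48 h libraries 10313.7 to 10457.1. The groups then did not overlap, with means of 10829.2 ± 132 and 10395.4 ± 68.9 (SD, n = 4 each; exact two-sided permutation p = 0.0286, the smallest that 4 against 4 can give). With the 2 dominant transcripts left out and the remaining counts brought to their lowest total, the ranges were 10720.8 to 10847.6 at 12 h and 10296.4 to 10374.5 at 48 h, with the same p. In RNA from whole gels, fewer cells of a type and less RNA per cell cannot be told apart, here and in every result that follows.

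Between 12 h and 48 h in stiff gels, 1570 of 7581 tested transcripts changed, 20.7% of those tested. Of these 824 rose, 10.9% of those tested, and 746 fell, 9.84%. Among the called transcripts the rises were mostly moderate and the falls reached further. The transcripts that rose had a median log2 fold change of 0.80, with 10% above 1.67. Those that fell had a median of -0.98, with 10% below -2.59. Over all 7581 tested transcripts the median was 0.01. More than 2-fold changes were seen for 643 of the 1570, 283 upward and 360 downward. More than 4-fold changes were seen for 44 that rose and 123 that fell, and more than 8-fold changes for 13 and 49. At the other end, 317 of the 1570 changed by less than 1.5-fold. Called falls lay more often among transcripts with few counts, where a call needs a larger change. In the quartile of tested transcripts with the lowest mean counts, 81 rises and 180 falls were beyond 2-fold. In the highest quartile these were 62 rises and 38 falls. The sizes of rises and falls above are thus not compared at like abundance.

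Calls came from edgeR's quasi-likelihood test on the counts of these 8 libraries, with RGD as a covariate and Benjamini-Hochberg adjusted p-values under 0.05 over all tested transcripts. The count of calls was between 1123 and 1613 when single libraries were left out. Replicate 2 of the gel without RGD at 12 h, which is described below as lying nearer to 48 h than the other 12 h libraries, was among these. Without it the filter kept more transcripts, 7990, and 1334 of them were called, 672 higher and 662 lower. Of the 1334, 1224 were among the 1570. Changes over 4-fold in this larger tested set numbered 65 upward and 139 downward.

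**Figure D1:**
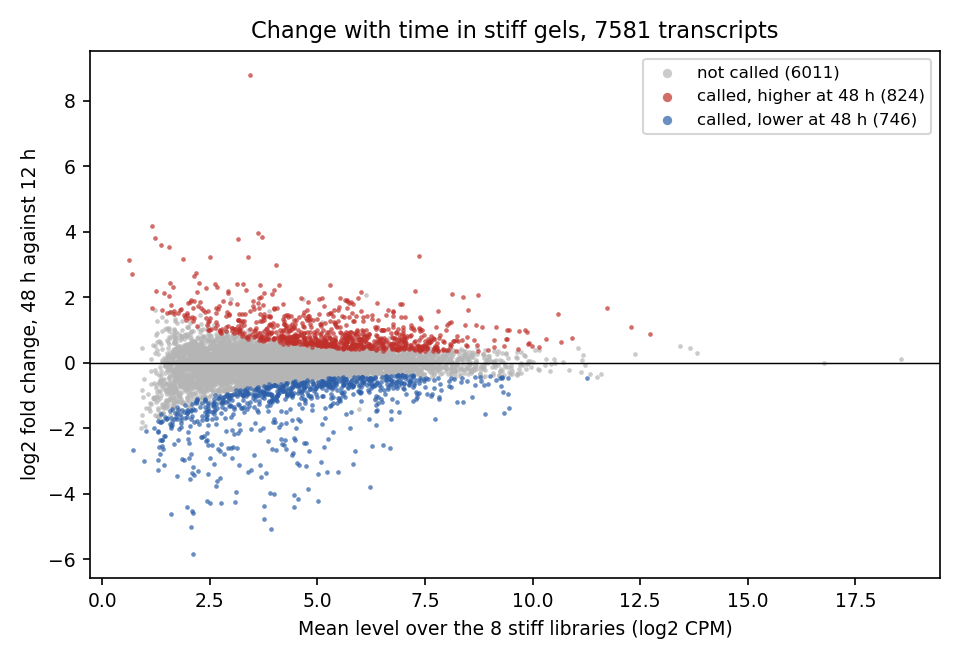
Each point is 1 of the 7581 tested transcripts, with its mean level over the 8 stiff libraries (log2 CPM) on the x axis and its log2 fold change between 12 h and 48 h on the y axis. The 824 called rises (red) and 746 called falls (blue) both widen toward low levels, and the falls beyond 4-fold outnumber such rises by 123 to 44. The fitted values of transcripts with almost no counts at 1 of the times are no measure of size.

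The libraries of the 2 times were fully apart for 1584 of the 7581 tested transcripts, 20.9%, of which 800 were higher at 48 h (10.6% of those tested) and 784 lower (10.3%). Of the 1570 called transcripts 1215 were of this kind, 613 that rose and 602 that fell. The other 355 were called although at least 1 library of one time lay within the range of the other. Of the 643 called beyond 2-fold, 74 overlapped in this way.

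Complete appearance or loss was rare in the tested set, which a transcript low at one time enters only through its counts at the other. Only 10 tested transcripts had 3 or fewer counts summed over the 4 libraries of one time. All 10 were among the 1570 called, which this way of entry largely fixed. Of these, 4 were near absent at 12 h, with at most 216 counts over the 48 h libraries, and 6 were near absent at 48 h, with at most 99 counts over the 12 h libraries. Within this filtered set, most called transcripts were detected at both times. Of the 824 risers, 817 to 820 had a count in each 12 h library. Of the 746 that fell, 726 to 735 had one in each 48 h library.

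The called transcripts moved a visible part of the RNA pool. Those that rose grew from 6.46% ± 0.494 of the counts to 10.8% ± 0.517 (SD, n = 4 each). Those that fell shrank from 5.73% ± 0.634 to 3.08% ± 0.374 (SD, n = 4 each). Leaving the 2 dominant transcripts out of the total, the risers went from 12.8% ± 0.759 to 21.4% ± 1.16 of the remaining counts, and those that fell from 11.4% ± 0.79 to 6.10% ± 0.724 (SD, n = 4 each). These sets were chosen by the same contrast, so the shares describe their size and carry no test.

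Direction went with abundance. In the quartile of tested transcripts with the lowest mean counts, 3.875 to 21.875 per library, 276 were called, 14.5% of the quartile, and 187 of them fell while 89 rose. In the second quartile 166 rose and 175 fell. In the third 236 rose and 180 fell. In the highest quartile, from 140 counts upward, 537 were called, 28.4%, and 333 rose while 204 fell. Nearly all calls in the lowest quartile were large, with 81 rises and 180 falls beyond 2-fold, and the median size of a called change was 1.65 on the log2 scale there and 0.64 in the highest quartile. The size needed for a call grows as counts fall, so that these medians do not compare the true changes. The surplus of falls in the lowest quartile and of rises in the highest was present under another scaling of the libraries (88 rises and 189 falls in the lowest, 327 and 207 in the highest, with RLE size factors). It was also present without replicate 2 of the gel without RGD at 12 h (62 and 139, 281 and 183), where 7990 transcripts were tested. The RLE fit shared 1559 of its 1570 calls with the main fit, so the 2 scalings are much alike. Over all transcripts of a quartile, called or not, the median log2 fold change was -0.12 in the lowest and 0.05 in the highest. The difference in direction between the quartiles was not tested.

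**Figure D2:**
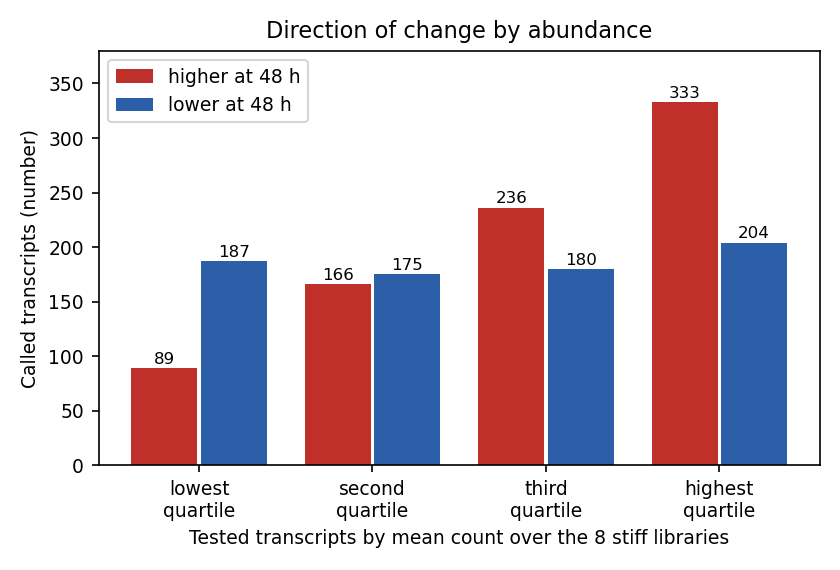
Bars give the number of called transcripts that were higher (red) or lower (blue) at 48 h in stiff gels, in each quartile of the tested transcripts ordered by mean count over the 8 libraries. Rises grow from 89 in the lowest to 333 in the highest quartile, while falls lie between 175 and 204 in all 4.

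Named transcripts had to be called, to average at least 20 counts, to have more than 3 counts at each time and to have no overlap between times. This held for 1012 transcripts, 552 that rose and 460 that fell, and the 2 with the largest fold change in each direction are given. Levels are CPM, each transcript's counts relative to the TMM-scaled library total, and each fold change comes with an approximate SE.

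Among these 1012, ENSRNOT00000011945.4 had the largest rise. At 12 h it stood at 0 and 4.22 CPM in the 2 libraries without RGD and at 0.688 and 0.602 CPM in those with RGD. At 48 h it stood at 26.3 and 43.2 CPM where RGD was absent and at 12.5 and 10.1 CPM where it was present. Every 48 h library lay above every 12 h library, which the naming rule required. At 48 h both libraries without RGD lay above both with RGD. The log2 fold change was 3.97 ± 0.43 (SE, edgeR adjusted p = 8.33e-07), a rise of 15.7-fold in level. It rests on 15 counts over the 4 libraries at 12 h, 11 of them in replicate 2 of the gel without RGD, and the fitted log2 fold change was between 3.42 and 5.08 with single libraries left out.

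ENSRNOT00000081032.1 rose by 14.3-fold. Its levels at 12 h were 2.65 and 1.15 CPM where RGD was absent and 1.03 and 1.81 CPM where it was present. At 48 h they were 25.9 and 33.9 CPM where RGD was absent and 23.6 and 14.9 CPM where it was present. The lowest 48 h library, with RGD, was still far above the highest at 12 h. The log2 fold change was 3.84 ± 0.33 (SE, edgeR adjusted p = 1.86e-08), and 3.98 ± 0.47 without RGD and 3.68 ± 0.49 with RGD (SE).

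ENSRNOT00000022549.4 had the largest fall among the 1012. At 12 h it stood at 30.5 and 26.5 CPM where RGD was absent and at 32.0 and 28.0 CPM where it was present, a narrow range. At 48 h it stood at 1.39 and 0 CPM where RGD was absent and at 0.502 and 1.49 CPM where it was present. It was close to lost in every 48 h library, with 8 counts over the 4 against 324 at 12 h. The log2 fold change was -5.08 ± 0.38 (SE, edgeR adjusted p = 3.17e-09), a 33.9-fold lower level.

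ENSRNOT00000065677.1 fell by 27.3-fold. At 12 h it stood at 33.6 and 16.9 CPM where RGD was absent and at 25.1 and 29.5 CPM where it was present. At 48 h it stood at 0.462 and 0.665 CPM where RGD was absent and at 0.502 and 1.86 CPM where it was present. The lowest of the 12 h libraries was again replicate 2 of the gel without RGD. The log2 fold change was -4.77 ± 0.39 (SE, edgeR adjusted p = 9e-09), with 291 counts at 12 h and 9 at 48 h.

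**Figure D3:**
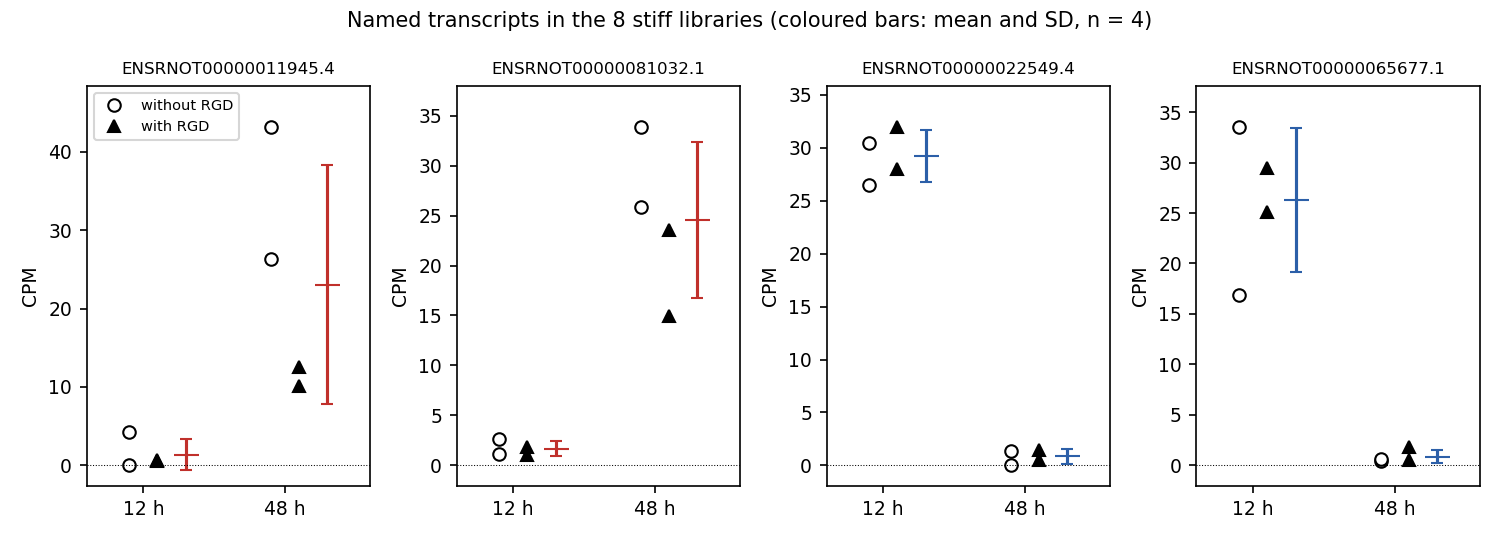
The y axis of each panel is the level in CPM of 1 named transcript, with 12 h and 48 h on the x axis, open circles for libraries without RGD, filled triangles for those with RGD, and coloured bars for the mean and SD of the 4 libraries. In all 4 panels the libraries of the times do not overlap, which the naming rule required. ENSRNOT00000011945.4 at 48 h ranges from 10.1 to 43.2 CPM.

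The change with time was then read separately without and with RGD, 2 libraries against 2, in a fit in which the 4 stiff groups shared one spread. Without RGD 733 transcripts were called, 9.67% of the 7581, 358 higher and 375 lower at 48 h. With RGD 600 were called, 7.91%, 337 higher and 263 lower. Both sets held the same 386 transcripts, 52.7% of those called without RGD and 64.3% of those called with RGD, and 0 of the 386 had opposite directions. Of the 347 called without RGD alone, 335 had the same sign with RGD, and of the 214 called with RGD alone, 203 had the same sign without. The share of like signs over all 7581 transcripts is not given, so these counts stand without a background. Of the 1570 transcripts of the combined test, 683 were called in neither condition alone. All 1570 had the same sign in both conditions, which choosing them by the average of both conditions largely fixes. With the same limit, the median log2 fold change of the 824 risers was 0.81 without and 0.81 with RGD, and that of the 746 that fell was -1.04 and -0.94.

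Across all 7581 transcripts, the log2 fold changes in the absence and presence of RGD, measured in different libraries, correlated with a Pearson r of 0.72, and across the 2562 with a mean of 100 or more counts with one of 0.83. These are descriptions across transcripts, which share each library's scaling and do not stand in for replicates. The test of the difference between the 2 changes called 0 of 7581 transcripts, 0%, by edgeR. The smallest adjusted p was 0.196, and 228 transcripts had an unadjusted p under 0.05. DESeq2 and limma-voom also called 0. The median SE of this difference was 0.44 on the log2 scale, and for 10% of transcripts it exceeded 0.88. Most differences of 2-fold were therefore not detectable here, nor were some of 4-fold. For ENSRNOT00000081032.1 the change with RGD minus that without was -0.31 ± 0.83, for ENSRNOT00000011945.4 0.08 ± 0.65, for ENSRNOT00000022549.4 0.74 ± 1.08 and for ENSRNOT00000065677.1 0.95 ± 1.05 (log2 difference with SE, edgeR adjusted p = 1 for each). The approximate SE of 0.65 for ENSRNOT00000011945.4 is too small, since its change with RGD alone had an SE of 0.76.

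These counts depended on single libraries more than the combined one did. Without RGD the call count was 219 without replicate 1 at 12 h, 386 and 350 without replicates 1 and 2 at 48 h. With RGD it was 207 and 318 without replicates 1 and 2 at 12 h. The direction split moved as well, to 77 higher and 142 lower without replicate 1 of the gel without RGD at 12 h, and to 91 higher and 116 lower without replicate 1 of the gel with RGD at 12 h.

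The stiff libraries were next placed on a scale whose ends were means of soft libraries. The 12 h and 48 h means of the soft gels were taken as 0% and 100%, over 2099 transcripts that changed with time in soft gels (1054 that rose and 1045 that fell there) and were tested in both. Each stiff library's position between these means was then computed on the log2 CPM scale. The scaling factors for this were fitted to soft and stiff libraries together. At 12 h the libraries without RGD lay at 2.84% and 22.8% and those with RGD at 2.36% and 7.82%. At 48 h those without RGD lay at 94.6% and 94.2% and those with RGD at 82.7% and 72.3%. The times did not overlap, with means of 8.95% ± 9.54 and 86.0% ± 10.6 (SD, n = 4 each; exact two-sided permutation p = 0.0286, the smallest possible). At 48 h both libraries with RGD lay behind both without. With 2 against 2 libraries this order could not reach an exact p under 0.05, and it was not tested.

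Replicate 2 of the gel without RGD at 12 h stood between the times. It lay at 36.4% over the transcripts that rise in soft gels and at 13.0% over those that fall, while the other 3 libraries at 12 h lay at 8.08% to 13.6% and at -3.51% to 3.71%. In the first principal component of log2 CPM, which held 50.4% of the variance of the 8 libraries, it had the value -18.1 against -33.7 to -26.6 in the others at 12 h and 21.0 to 32.7 at 48 h. Its Spearman correlations with the 48 h libraries, 0.928 to 0.932, include the highest of all 16 pairs across times, which start at 0.897. Its total of 2529499 counts and its 11152 detected transcripts lay inside the range of the other 12 h libraries. The source of this position was not tested.

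**Figure D4:**
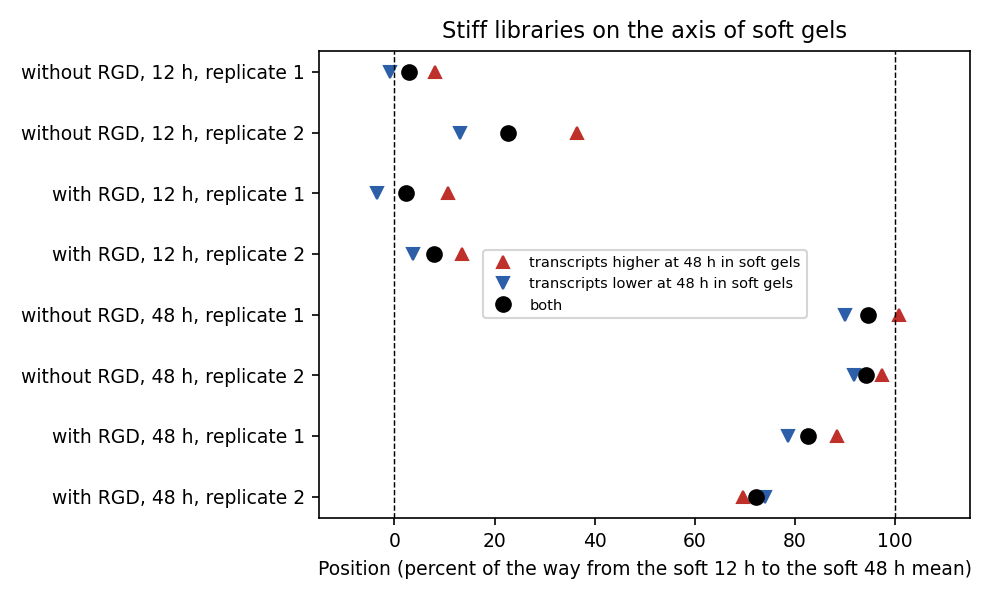
The x axis gives the position of each of the 8 stiff libraries (rows) between the soft 12 h mean (0%) and the soft 48 h mean (100%), over all 2099 transcripts (black circles), over those that rose in soft gels (red) and over those that fell (blue). Replicate 2 without RGD at 12 h lies at 22.8%, and the 48 h libraries with RGD, at 82.7% and 72.3%, lie left of those without.

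In soft gels, in a separate fit of their 8 libraries, 2117 of 7308 transcripts changed with time, 29% of those tested, 1061 higher and 1056 lower. The stiff and soft comparisons share no library. Of the 7186 transcripts tested in both, 1511 were called in stiff and 2099 in soft gels. The 1058 called in both were 70.02% of the stiff set and 50.4% of the soft set. Of these 558 rose in both, 500 fell in both, and 0 had opposite directions. Of the 453 called in stiff gels alone, 392 had the same sign in soft gels, and 110 changed more than 2-fold in stiff gels. The share of like signs over all 7186 is not given, so the 392 stand without a background. The log2 fold changes in stiff and soft gels had a Pearson correlation of 0.81 across the 7186 transcripts, which again is a description across transcripts and not over replicates.

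Sizes in stiff gels depended on which set was read. Transcripts called in stiff gels had a median log2 fold change of 0.79 in stiff and 0.75 in soft gels where they rose, and of -0.95 and -0.96 where they fell. Transcripts called in soft gels had medians of 0.55 in stiff and 0.83 in soft gels where they rose, and of -0.57 and -0.91 where they fell. Choice by a test tends to raise the values in the gels it was made in. These were stiff in the first pair of medians and soft in the second. Without such a choice, the median absolute log2 fold change was 0.31 over the 7581 transcripts tested in stiff gels. Over the 7308 tested in soft gels it was 0.40. The source of these differences was not tested. On a scale set the other way round, from the 1511 transcripts called in stiff gels and the stiff means, the soft libraries lay at 7.55% to 15.4% at 12 h and at 95.5% to 109% at 48 h.

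**Figure D5:**
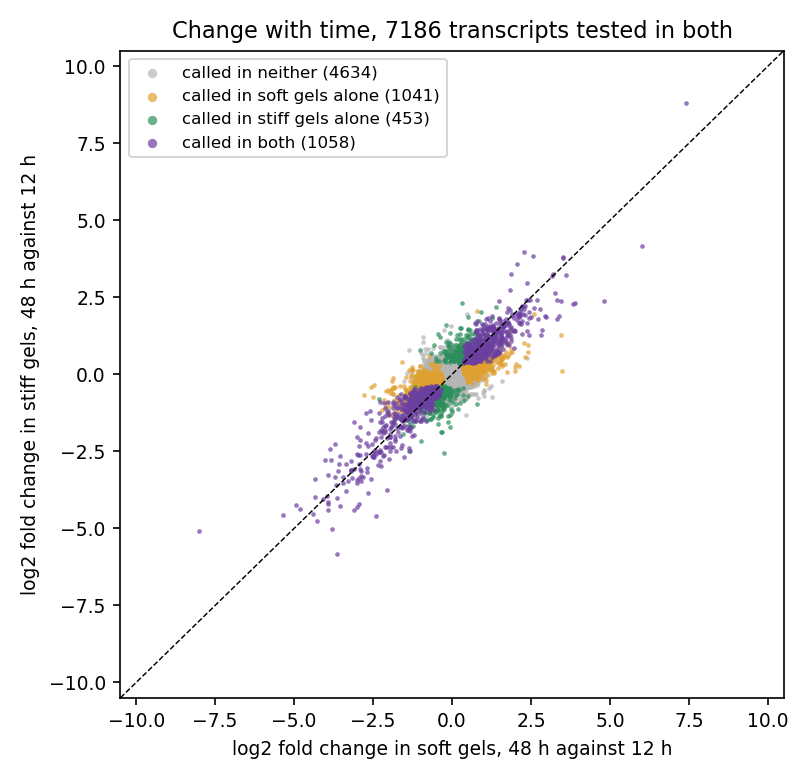
Each point is 1 of the 7186 transcripts tested in both gels, with the log2 fold change between 12 h and 48 h in soft gels on the x axis and in stiff gels on the y axis, and the dashed line marks equal changes. The 1058 transcripts called in both (purple) all lie in the quadrants of like sign, and those called in soft (orange) or stiff gels alone (green) flank the origin.

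A difference between stiff and soft gels in the change with time was tested over all 16 libraries. It was called for 0 of 7876 transcripts, 0%, by edgeR. Unadjusted p-values under 0.05 were found for 693 of the 7876, the smallest adjusted p was 0.228, and DESeq2 and limma-voom also called 0. The median SE of this difference was 0.34 on the log2 scale, so that many differences of 2-fold were not detectable here. The count of 0 therefore does not show that the changes in stiff and soft gels were equal. Leaving out the first soft replicate without RGD at 48 h gave 26 calls, 24 with a log2 fold change that was higher (more positive or less negative) in stiff than in soft gels and 2 with a lower one. A single call appeared when the soft replicate 2 with RGD at 48 h was left out, and likewise for the stiff replicate 1 without RGD at 12 h and the stiff replicate 1 with RGD at 48 h.

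Of the named transcripts, ENSRNOT00000081032.1 rose in soft gels by 2.55 ± 0.29 (SE, log2, edgeR adjusted p = 4.53e-07), while its change in stiff gels was higher by 1.26 ± 0.50 (unadjusted p = 0.0183, edgeR adjusted p = 0.492). Its 12 h levels were 3.10 to 5.46 CPM in soft and 1.03 to 2.65 CPM in stiff gels, and its 48 h levels overlapped, at 17.9 to 33.8 and 14.9 to 33.9 CPM. ENSRNOT00000011945.4 rose by 2.29 ± 0.33 in soft gels (SE, edgeR adjusted p = 1.4e-05), with a difference of 1.74 ± 0.69 (unadjusted p = 0.0192, edgeR adjusted p = 0.492). ENSRNOT00000022549.4 fell in soft gels from 26.9 to 51.3 CPM at 12 h to a sum of 1 count over the 4 libraries at 48 h, and the test of the difference gave an unadjusted p of 0.00814 and an edgeR adjusted p of 0.487. With so few counts at 48 h, the size of that difference is not given. ENSRNOT00000065677.1 had a log2 fold change of -4.28 ± 0.34 in soft gels (SE, edgeR adjusted p = 1.47e-09), and a difference of -0.58 ± 0.65 (edgeR adjusted p = 0.854). All 4 named transcripts thus changed in the same direction in both gels, and none of them passed the adjusted threshold for a difference between the gels. An unadjusted p under 0.05 was found for 3 of them, and for 693 of all 7876 tested transcripts. The 4 were chosen by the size of their change in the stiff libraries, which also enter this test. Their unadjusted p-values therefore carry no weight for a difference.

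The spread among replicates in stiff gels differed between the pairs with and without RGD. The common biological coefficient of variation, the spread beyond counting error, was 0.149 for the 4 libraries at 12 h and 0.190 for those at 48 h, each with RGD as a covariate. When a library is left out, its partner is fitted exactly, so that the value is then the spread of the other pair alone. At 12 h this was 0.123 for the pair with RGD and 0.171 for the pair without. At 48 h it was 0.215 for the pair with RGD and 0.159 or 0.158 for the pair without. In soft gels the values were 0.0979 at 12 h and 0.222 at 48 h. In stiff gels the 12 h value was thus below the 48 h value for the pair with RGD and above it for the pair without. The difference in spread between times or between RGD conditions was not tested.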

How the data were processed

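The authors deposited raw counts per versioned Ensembl transcript, without normalization. HISAT2 2.1.0, HTSeq, FastQC and build rn6 are named in the submitters' processing notes. Not given in the sources used here are the annotation release, the counting mode and whether strand or molecular identifiers were used, so isoforms and overlapping genes can share reads. Columns were matched to samples by title.

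The 8 stiff libraries were fitted alone with edgeR 4.0.16 in R 4.3.3: filterByExpr by group (at least 10 counts, total of 15), which kept 7581 of 41078 transcripts with 99.5 to 99.7% of the counts, TMM scaling (factors 0.875 to 1.15) and a robust quasi-likelihood test of time with RGD as covariate. RGD strata and their difference used 1 mean per group, and the test against soft gels used all 16 libraries. The threshold was an adjusted p of 0.05. The SE is the fold change over the square root of the F statistic, an approximation. Log2 CPM used a prior count of 2. The script was tested on simulated data. Nothing says that replicates were separate cultures, so p-values measure only the spread among these libraries, possibly technical. Replicates differed by more than sampling noise (chi-square per degree of freedom 5.92 to 11.6).

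Alternatives used DESeq2 1.42.0 and limma 3.58.1. Rarefaction of detected transcripts, with and without the dominant pair, was added after seeing the data. Named transcripts follow the rule in the text. The members, lists and tests were chosen with earlier results of these data known. Marker and pathway lists could not be tested, since no identifier matched a symbol.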

Additional observations from a re-analysis of the deposited data

Results flagged for a closer look

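Over 24 sets of 4 stiff libraries (library measures and named transcripts at 1 time), 2 held a library far from the other 3, where chance flags about 1 in 20. ENSRNOT00000011945.4 at 12 h stood at 4.22 CPM in replicate 2 of the gel without RGD and at 0 to 0.688 CPM in the others. ENSRNOT00000065677.1 at 48 h stood at 1.86 CPM, from 5 counts, in replicate 2 of the gel with RGD and at 0.462 to 0.665 CPM in the others, which had 1 or 2 counts each.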

How the results depend on the processing

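The count of transcripts that changed with time in stiff gels was within 1.5 times of 1570 under all 20 alternatives, from 1123 to 1688, and rises were 49.7 to 52.7% of the calls with each library left out. It was 1570 with RLE size factors, 1348 with DESeq2, 1528 with limma-voom and 1521 with all 16 libraries in the fit. The 4 named transcripts kept their direction and their call in all 20. For time by RGD the count was 0 in all 15 but 1 alternative: it was 1 with no filter on low counts. For time by stiffness it was 32 with no filter on low counts (16 in each direction) and 0 to 26 with each library left out. With single libraries left out, time without RGD gave 219 to 941 calls, time with RGD 207 to 595, and time in soft gels 1579 to 2395. The fall in detected transcripts from 12 h to 48 h, -504.5 on average, was -433.8 at equal library totals and -439 at equal totals without the 2 most abundant transcripts, and passed its test in both. The cause was not tested.

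With the replicate block the counts were 1475 for time in stiff gels, 618 without RGD, 521 with RGD, 2042 in soft gels and 0 for both differences, within 1.5 times of those without it. Of the 1570 calls for time in stiff gels 1460 were among the 1475, and the 4 named transcripts kept theirs. Same-numbered replicates of the stiff groups did not deviate together (correlations -0.14 to 0.13 over the 6 pairs of groups). The labels do not say whether a number marks a shared culture or day. With 2 libraries per group these correlations cannot settle it. Depth limits the transcripts of the lowest quartile, where few changes under 2-fold could be called.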

Other observations

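The 100 most abundant transcripts of the stiff libraries, which took 64.8% of the counts, included 30 called transcripts, against 20.7% over all tested ones and 28.4% in the highest quartile. Of the 30, 20 rose and 10 fell, and 6 changed more than 2-fold. This set was chosen by its mean level over both times, and its share was not tested against the background.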
